A study of Mus musculus with 7 samples.

Results

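The genes described here are 10 autosomal genes by which the mouse egg is recognised: the zona pellucida genes Zp1, Zp2 and Zp3, the secreted and enzymatic egg genes Gdf9 and Astl, the nuclear chaperone gene Npm2, and the transcription factor genes Figla, Nobox, Sohlh1 and Lhx8. They were taken by name, without use of their values in the rule, but with earlier results of these data known. All 10 of 10 were found among 20665 autosomal protein-coding genes. The readout is H3K4me1, the single methylation of lysine 4 of histone H3 that marks enhancers and active gene bodies, measured by CUT&Tag in single zygotes, where an antibody to the mark directs the Tn5 transposase so that sequenced fragments lie at marked chromatin. The series holds 7 samples of zygotes with no treatment. Of these, 2 are H3K4me1 batches, each with the zygotes of 1 mouse, and both share 1 table. Zygotes came from B6D2F1/J females of 6 weeks mated with C57BL6/J males of 3 to 6 months, after superovulation with pregnant mare serum gonadotropin (5 IU), followed at 46 to 48 h by human chorionic gonadotropin (5 IU). Collection was at 23 past the chorionic gonadotropin, whose unit the labels omit, and the zygotes lost their cumulus cells and zona pellucida before lysis. The H3K27me3 and transcriptome samples were not analysed here.

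The zona pellucida is the extracellular coat of the egg, built from ZP1, ZP2 and ZP3 that the growing oocyte secretes. The basic helix-loop-helix factor FIGLA binds E-box motifs, written CANNTG, in zona gene promoters, and SOHLH1, NOBOX and LHX8 act with it in the young oocyte, NOBOX among others on Gdf9. After fertilisation ovastacin, the protease encoded by Astl, is released from cortical granules and cleaves ZP2, so that no further sperm bind. These genes are transcribed in the growing oocyte, whereas the fully grown egg and the early zygote make little RNA.

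Promoter sequences are shown for 3 of the genes because the E-box is the textbook link among them. The RefSeq table for GRCm38.p6, the assembly behind mm10, matched 6 of the 10 genes, namely Zp3, Figla, Nobox, Sohlh1, Lhx8 and Astl. The 250 bases before the start were searched on both strands for the E-box with the letters CACGTG, for the E-box with CAGGTG, and for the homeobox motifs with TAATTG and with TAATTA. None of the hits overlapped another motif. Only the hits of CACGTG and CAGGTG are in capitals below, and other sequences of the form CANNTG were not searched or marked. The sequences run 5′ to 3′ on the strand of the gene, for Zp3 (chr5:135979855-135980104, plus strand), Sohlh1 (chr2:25847249-25847498, minus strand) and, as the one without either of these E-boxes, Lhx8 (chr3:154330561-154330810, minus strand).
Zp3: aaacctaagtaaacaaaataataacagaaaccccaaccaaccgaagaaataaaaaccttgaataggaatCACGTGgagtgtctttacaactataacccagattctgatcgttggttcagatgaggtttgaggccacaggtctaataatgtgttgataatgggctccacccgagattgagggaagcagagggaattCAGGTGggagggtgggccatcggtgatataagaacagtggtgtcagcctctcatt
Sohlh1: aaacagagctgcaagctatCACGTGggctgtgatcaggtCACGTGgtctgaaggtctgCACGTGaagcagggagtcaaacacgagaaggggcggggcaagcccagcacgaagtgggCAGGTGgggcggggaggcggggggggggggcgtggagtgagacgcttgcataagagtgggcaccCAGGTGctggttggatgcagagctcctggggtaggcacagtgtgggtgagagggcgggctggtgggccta
Lhx8: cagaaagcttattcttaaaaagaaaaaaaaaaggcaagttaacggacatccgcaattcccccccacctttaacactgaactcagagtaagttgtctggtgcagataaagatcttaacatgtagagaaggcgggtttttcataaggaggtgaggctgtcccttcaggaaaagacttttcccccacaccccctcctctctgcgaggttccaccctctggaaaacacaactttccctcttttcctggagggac

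Sohlh1 held 3 copies of CACGTG, which begin 231, 211 and 192 bases before the start, and Zp3 held 1 at 181 bases. CACGTG occurred in 6.02% of 32851 promoters of this length in the table. CAGGTG occurred in 17.2% of them, and was found once in Zp3 and in Figla and 2 times in Nobox and in Sohlh1. Astl has 2 starts in the table, and 3 copies of CAGGTG lay before the inner of these starts and 0 before the outer. Neither homeobox motif was found in any of these windows, while TAATTG occurred in 7.17% and TAATTA in 4.84% of all promoters. Few fragments lay on these promoters: 1 overlapped that of Zp3, Figla, Nobox and the outer one of Astl, and 0 overlapped that of Sohlh1, Lhx8 and the inner one of Astl. Depth therefore allows no statement on single promoters, and values for parts of a gene window below rest on few fragments.

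In the 14 libraries that reached 5000 fragments there were 1404305 on chromosomes 1 to 19, X and Y, with 7106 to 197312 per library and a median of 96240. Library names carry a number 4 (3 libraries) or 5 (11 libraries) that no label ties to a batch, so the pool is 1 sample and has no replicate. Libraries are written as this number followed by the number of the cell, for example 5-4. The level of a gene is its fragments per bp, counted over the gene plus 2.5 kb at either end, divided by the autosomal mean of 5.62 fragments per 10 kb. Ranges in parentheses are exact 95% Poisson intervals, which reflect counting error alone: reads were amplified without molecular identifiers, so fragments need not be independent molecules. No test between samples was possible.

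H3K4me1 fragments were more frequent at all 10 genes than the autosomal mean, and at 8 of them the interval lay above 1. That share was 29.5% over all autosomal protein-coding genes, 28.8% over the 8198 of them whose window length lay in the range of the 10 genes, and 30.3% over the 5940 whose flanks, described below, also had a level in that range. An interval below 1 was found for 0 of the 10, for 7.17% of all genes and for 5.2% of those of like window length. The median level of the 10 genes was 2.22, against 1.21 over all autosomal protein-coding genes and 1.34 over those of like window length, or 1.40 with like flanks. All 10 lay above the median of all genes, Zp2 at the margin with 1.210 against 1.209. Since the genes were chosen with earlier results of these data known, these contrasts are descriptive. Together the 10 windows covered 163.44 kb and held 189 fragments, a summed level of 2.06 (1.77 to 2.37). The plot of gene and flank levels shows that the point of each gene lies above that of its flanks.

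**Figure D1:**
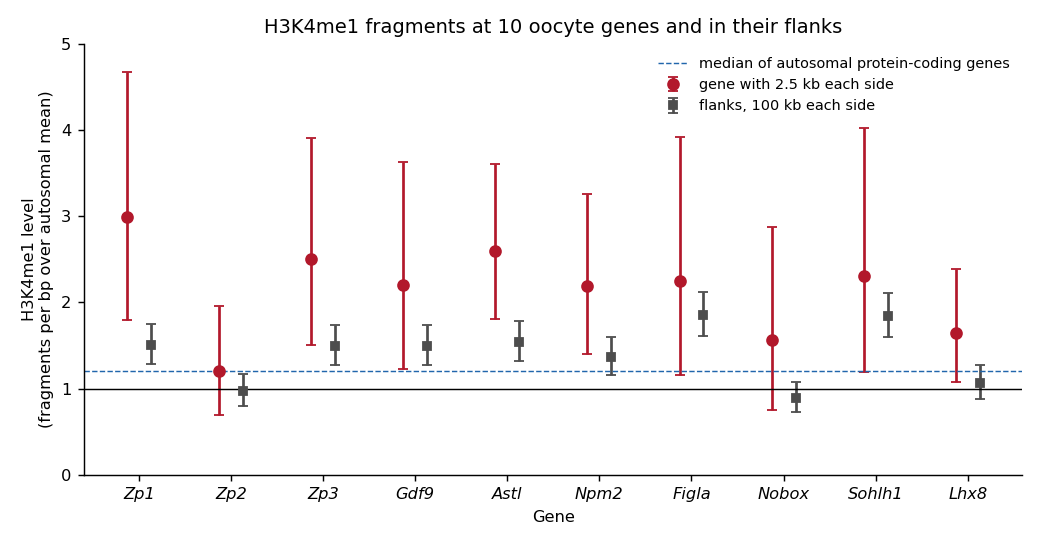
Level of H3K4me1 (fragments per bp over the autosomal mean, linear axis) for each of the 10 genes with 2.5 kb on each side (circles) and for 100 kb on each side of that window (squares), with exact 95% Poisson intervals from 14 pooled libraries; the solid line marks the autosomal mean and the dashed line the median of autosomal protein-coding genes, 1.21. The gene lies above its flanks in 10 of 10 cases, and the intervals of Zp2 and Nobox reach below 1.

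The zona pellucida genes held both the highest and the lowest level of the 10. Zp1, whose product cross-links the filaments of the coat, lies at chr19:10914296-10920601. Its window held 19 fragments from 10 libraries, with 0 to 4 per library and a median of 1, and had a level of 2.99 (1.80 to 4.67). Of autosomal protein-coding genes, 98.2% had a lower level. The fragments were concentrated in the transcribed part of Zp1: 16 of the 19 lay in the gene itself, at a level of 4.51 (2.58 to 7.33), against 2 and 1 in the 2.5 kb on its sides. In a division of the window into 5 equal pieces, the middle piece (chr19:10916318-10918578) had 8 fragments from 7 libraries and a level of 6.30 (2.72 to 12.4). All but 1 of the fragments in the window came from libraries named 5, in which the level was 3.45 (2.04 to 5.45), while that in libraries named 4 was 0.883 (0.0224 to 4.92). These intervals overlap, and the value of the second set rests on 1 fragment.

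Zp3, the partner of ZP2 in the filaments, lies at chr5:135980105-135988624 on the plus strand. It had 19 fragments from 9 libraries, with 0 to 4 per library and a median of 1.5, and a level of 2.5 (1.51 to 3.90). Its fragments were placed differently from those of Zp1. The 2.5 kb beyond the end of Zp3 held 8 fragments from 6 libraries, a level of 5.69 (2.46 to 11.2), the 2.5 kb before its start held 4, a level of 2.85 (0.776 to 7.29), and the gene itself held 7 from 3 libraries, a level of 1.46 (0.588 to 3.01). Over the gene alone the interval of Zp3 thus spanned 1. With 2.5 kb on either side of its start, Zp3 had 7 fragments and a level of 2.49 (1.00 to 5.13).

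Zp2, which ovastacin cleaves, lies at chr7:120126762-120145291 and stood at the low end. It had 16 fragments from 10 libraries, with 0 to 4 per library and a median of 1, in a window of 23.5 kb, and a level of 1.21 (0.692 to 1.96). In the ranking of all genes it had 50.1% of autosomal protein-coding genes below it. The fragments lay in the gene (14) and on its low-coordinate side (2), and 0 lay in the 2.5 kb on the other side, for which the limit set by 3 fragments is a level of 2.14. The level of Zp1 was 2.47 times that of Zp2 (1.20 to 5.14), that of Zp3 was 2.07 times (1.01 to 4.30) and that of Astl 2.14 times (1.16 to 4.15). These were 3 of the 45 pairs among the 10 genes whose ratio had an interval above 1. All 3 involve Zp2, the lowest gene, and among 45 pairs some such intervals can arise from counting error alone. For the remaining pairs, including every pair next to each other in the order of levels, the interval spanned 1.

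Among the genes of secreted and stored egg proteins, Astl at chr2:127338639-127357655 had the most fragments of all 10 genes. It had 35 from 12 libraries, with 0 to 9 per library and a median of 2, and a level of 2.59 (1.81 to 3.61). The highest count, 9, came from library 5-4, the deepest, and without it the level was 2.24. Fragments were spread along the gene, which held 26 at a level of 2.43 (1.59 to 3.56), and the 2.5 kb beyond its end held 8 from 5 libraries at 5.69 (2.46 to 11.2). The 2.5 kb before the outer start, where the phosphatase gene Dusp2 lies, held 1 fragment. Gdf9, a growth factor that the oocyte sends to its granulosa cells, lies at chr11:53430774-53437904. It had 15 fragments from 8 libraries, with 0 to 5 per library and a median of 1, and a level of 2.20 (1.23 to 3.63). Without library 5-2, which gave 5 of them, the level was 1.59 (0.761 to 2.92) and its interval spanned 1. Its window shares 6 fragments with that of Uqcrq, a respiratory chain subunit gene whose annotated span overlaps that of Gdf9 by 58 bp. Fragments in this overlap cannot be assigned to one of the genes. The window of Astl shares 5 of its 35 fragments with that of Dusp2.

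Npm2, which encodes the oocyte nucleoplasmin, a histone chaperone that opens sperm chromatin, lies at chr14:70647296-70661802. It had 24 fragments from 8 libraries, with 0 to 9 per library and a median of 1, and a level of 2.19 (1.40 to 3.26). Library 5-6 alone gave 9 of the 24, which is 37.5%, and without it the level was 1.56 (0.871 to 2.57), with an interval that spanned 1. The fragments crowded at the low-coordinate end of the window: the 2.5 kb outside the gene held 9 from 5 libraries, a level of 6.41 (2.93 to 12.2), while the gene held 11, a level of 1.35 (0.673 to 2.41). The window of Npm2 shares 5 of its 24 fragments with that of its neighbour Xpo7. Within the 10 windows, fragments of 1 library lay at most 2 deep over a base.

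The 4 transcription factor genes had levels between 1.56 and 2.31. Sohlh1, a basic helix-loop-helix factor of primordial follicles, lies at chr2:25842995-25847248 on the minus strand. It had 12 fragments from 6 libraries, with 0 to 3 per library and a median of 0, and a level of 2.31 (1.19 to 4.03). Figla, at chr6:86016494-86020996 on the plus strand, also had 12, from 7 libraries, with 0 to 3 per library and a median of 0.5, and a level of 2.25 (1.16 to 3.92). In both genes 8 of the 12 lay within the gene, at levels of 3.35 (1.44 to 6.59) in Sohlh1 and 3.16 (1.36 to 6.23) in Figla. All 12 fragments of Figla came from libraries named 5. The libraries named 4 had 0, for which the limit set by 3 fragments is a level of 3.15, so that their depth does not separate the sets.

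Lhx8, a LIM homeobox factor also used in forebrain development, is the longest of the 10 genes (chr3:154306288-154330560, minus strand). It had 27 fragments from 10 libraries, with 0 to 5 per library and a median of 1.5, and a level of 1.64 (1.08 to 2.39). Its gene held 25 of them, at 1.83 (1.19 to 2.71), but the 2.5 kb before the start and the 2.5 kb after it held 0, and over these 5 kb the limit set by 3 fragments is a level of 1.07. In libraries named 4 the level of Lhx8 was 3.07 (1.40 to 5.83) and in libraries named 5 it was 1.33 (0.789 to 2.10), and the intervals overlap. Sohlh1 had the same ratio between the sets, with 4.31 (1.18 to 11.0) from 4 fragments and 1.87 (0.808 to 3.69) from 8. Nobox, an oocyte homeobox factor at chr6:43303674-43310072 on the minus strand, had 10 fragments from 7 libraries, with 0 to 3 per library and a median of 0.5. Its level was 1.56 (0.748 to 2.87), and 70.4% of autosomal protein-coding genes lay below it.

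For 3 of these factor genes, Figla, Sohlh1 and Lhx8, an interval above 1 depended on single libraries, while that of Nobox spanned 1 with each library left out. Figla had intervals that spanned 1 without library 5-2 (2.03, 0.972 to 3.73), 5-3 (2.00, 0.959 to 3.68) or 5-6 (1.92, 0.876 to 3.64). For Sohlh1 the same held without library 4-2, 4-5, 5-5 or 5-10, with levels of 2.02, 2.07, 2.08 and 1.92, and for Lhx8 without library 4-4, 4-5 or 5-3, with 1.48, 1.44 and 1.43. The interval of Figla also spanned 1 with libraries weighted equally, at 1.75 (0.881 to 3.12), and that of Lhx8 with 5 kb around the gene, at 1.45 (0.966 to 2.10). With 1 kb around the gene the interval of Nobox lay above 1, at 2.12 (1.02 to 3.90). Zp1, Zp3 and Astl kept an interval above 1 with each of the 14 libraries left out in turn. All 10 levels stayed above 1 in each of these 14 cases, and 6 to 8 of the 10 had an interval above 1.

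**Figure D2:**
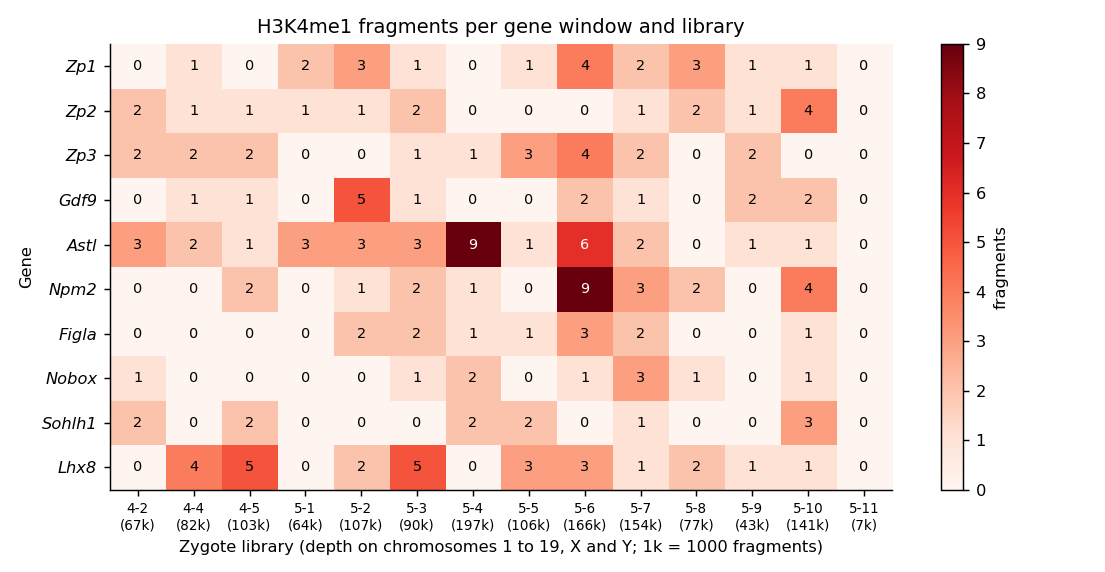
Number of H3K4me1 fragments in the window of each of the 10 genes (rows) in each of the 14 zygote libraries (columns, with their depth), darker for higher counts. Counts run from 0 to 9, the 2 cells with 9 are Astl in library 5-4 and Npm2 in library 5-6, and library 5-11 has 0 in all rows.

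Read per library, the sum over the 10 genes was above the autosomal mean in 13 of 14 libraries. In the pool the median autosomal protein-coding gene also lay above that mean, at 1.21, and its level per library was not computed. The level of the sum ran from 0 in library 5-11 to 3.07 (1.82 to 4.85) in library 5-3, with a median of 2.02. Library 5-11 had an expected count of 0.461 fragments in all windows together, for which the limit set by 3 fragments is a level of 6.51. The interval lay above 1 in 9 libraries and below 1 in 0. The deepest library, 5-4, had the lowest level after 5-11, 1.25 (0.715 to 2.03), and held fragments of 6 of the 10 genes, with 9 of its 16 at Astl. Library 5-7 was the one with a fragment at each of the 10 genes. The summed level was 2.14 (1.49 to 2.97) in libraries named 4, from 35 fragments, and 2.04 (1.73 to 2.39) in libraries named 5, from 154. The sets gave like sums although single genes differed: 6 of the 10 genes were higher in libraries named 5, and for 0 of the 10 were the intervals of both sets apart.

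**Figure D3:**
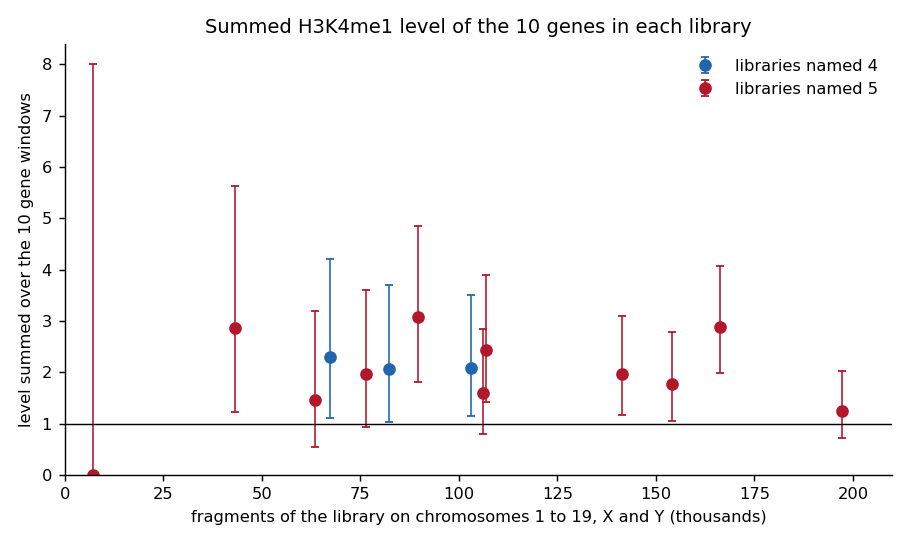
Level summed over the 10 gene windows (fragments per bp over the mean of the library's autosomes) against the number of fragments of each library, with exact 95% Poisson intervals; blue marks libraries named 4, red libraries named 5, and the line the autosomal mean. In 13 of 14 libraries the point lies above 1, from 1.25 in the deepest to 3.07, and the shallowest, with 7106 fragments, lies at 0.

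The surroundings of the genes were also above the autosomal mean. Over 100 kb on each side of the windows the summed level was 1.40 (1.33 to 1.47), and the median of the 10 flank levels was 1.49, against 1.22 over all autosomal protein-coding genes. The flanks of Figla with 1.85 (1.61 to 2.12) and Sohlh1 with 1.84 (1.60 to 2.11) were highest, those of Nobox with 0.890 (0.724 to 1.08) and Zp2 with 0.970 (0.796 to 1.17) lowest. Flanks with an interval above 1 were found for 7 of 10. The share of all genes with such flanks was not computed, so this count has no background. Within 500 kb, Sohlh1 has 44 other protein-coding genes, Zp1 35, Astl 25, Zp3 23, Npm2 21, Zp2 19, Figla 18, Gdf9 16, Nobox 15 and Lhx8 9. Sohlh1, with the most such genes, had flanks at 1.84, and Lhx8 and Nobox, with the fewest, had flanks at 1.07 and 0.890. The order was not the same throughout. Figla, with the highest flanks, has 1 gene fewer around it than Zp2, and Gdf9, whose flanks had a level of 1.49, has 1 more than Nobox. A relation of flank level to the number of genes was not tested. The part of the surroundings in the gene levels was not tested.

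Measured against their own flanks, the 10 windows together had 1.47 times the density of fragments (1.25 to 1.71, exact conditional binomial interval). The windows exceeded the flanks in 12 of 14 libraries. The exceptions were the deepest, 5-4, with 0.848 (0.476 to 1.41), and 5-11, which had no fragment in the windows. The window exceeded its flanks in 10 of 10 genes, while 51.4% of all autosomal protein-coding genes did so, and the median ratio was 1.57, against 1.02 over all genes. For single genes the ratio was less sure. It was highest for Zp1 with 1.99 (1.17 to 3.20), and the interval of Astl, 1.68 (1.14 to 2.43), also lay above 1, so that 2 of 10 did, while 10.4% of all genes do. An interval below 1 was found for 0 of the 10 and for 6.04% of all genes. Without library 5-2 or 5-8 the ratio of Zp1 was 1.79 (0.999 to 3.00) or 1.69 (0.947 to 2.83), and without 5-4 that of Astl was 1.43 (0.907 to 2.18). The window mattered too: with 5 kb around the gene the ratio of Zp1 was 1.43 (0.855 to 2.29), and over the gene alone that of Astl was 1.54 (0.982 to 2.34). The remaining intervals spanned 1, among them those of Nobox with 1.75 (0.816 to 3.36), Zp3 with 1.67 (0.983 to 2.70), Npm2 with 1.60 (0.993 to 2.47) and Lhx8 with 1.54 (0.973 to 2.35). Leaving out single libraries, such as 5-4, brought the intervals of Zp3, Npm2 and Lhx8 above 1, at 1.80, 1.73 and 1.72. With 5 kb around the gene the intervals of Gdf9 and Npm2 lay above 1, at 1.98 and 1.71, with 1 kb that of Nobox did, at 2.41, and over the gene alone that of Lhx8 did, at 1.70. Figla and Sohlh1, which have the highest flanks, had the lowest ratio and the third lowest, 1.21 (0.617 to 2.17) and 1.25 (0.637 to 2.24), with Zp2 between them at 1.25 (0.689 to 2.12).

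Step by step, the level fell from 2.06 in the windows to 1.37 (1.16 to 1.60) in the first 10 kb outside them and then showed no further trend, with 1.25 to 1.54 in the 10 steps out to 100 kb. Of the 200 flanking bins of 10 kb, 38, or 19%, had an interval above 1, against 7.92% of autosomal bins, and 3, or 1.5%, had one below, against 11.6%. The median flank bin had a level of 1.25, against 0.890 over all autosomal bins. None of the 200 was enriched, meaning a level of 3 or more from 20 or more fragments of 5 or more libraries, as 0.518% of autosomal bins are. The minimum of 20 fragments is the stricter of these bounds, since bins with 19 fragments, at a level of 3.38, were not called. Bins counted from fixed chromosome positions gave 2 enriched ones, both with 24 fragments and a level of 4.27 (2.74 to 6.35): chr19:10960001-10970000 at Ms4a10, 39.4 kb from Zp1, and chr14:70550001-70560000 at Hr, a corepressor gene of the hair follicle, 87.3 kb from Npm2.

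**Figure D4:**
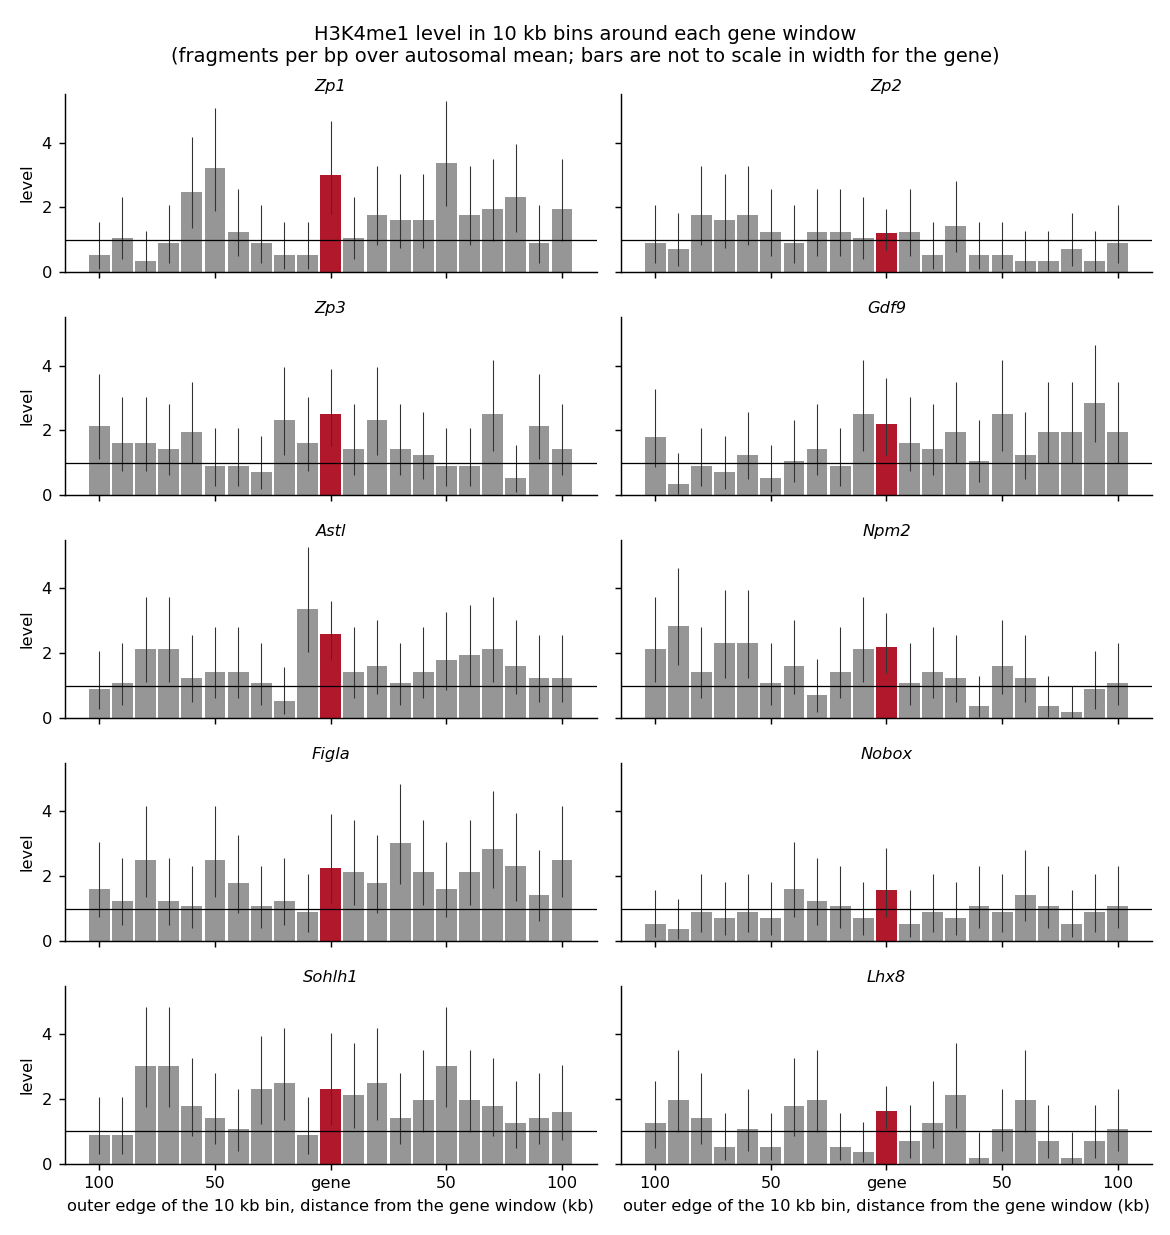
Level of H3K4me1 (fragments per bp over the autosomal mean) in 10 kb bins over 100 kb on each side (grey) of each gene window (red, drawn at the width of a bin), with lower coordinates to the left, exact 95% Poisson intervals and a line at 1. At Zp3 no flank bin reaches the level of the gene, 2.5, while at Zp2 8 of 20 do, and the flanks of Figla and Sohlh1 are high over most of their length.

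The highest flank bin overlapped a protein-coding gene at 8 of the 10 genes, Lhx8 and Astl being the exceptions. Most of the 200 flank bins overlap such a gene, so this count does not set the highest bins apart. At Zp1 the bin 40 to 50 kb away on the high-coordinate side, at Ms4a10, had a level of 3.38 (2.04 to 5.28) from 6 libraries. At Astl it was the bin next to the window, with 3.38 (2.04 to 5.28) from 7 libraries, which overlaps no protein-coding gene and lies 21 bp from Dusp2. At Figla the bin 20 to 30 kb away, at Add2, which encodes a cytoskeletal adducin, had 3.02 (1.76 to 4.84), and at Sohlh1 3 bins had this same level, at the lipocalin genes Lcn3 and Lcn11 on the low-coordinate side and at Kcnt1 on the other. At Gdf9 (Septin8) and at Npm2 (Hr) the highest bins had 2.85 (1.63 to 4.62), and at Zp3 (Upk3bl) 2.49 (1.36 to 4.18). The highest bin of Lhx8, with 2.14 (1.10 to 3.73), lies 20 to 30 kb before its start, with Lhx8 as the nearest protein-coding gene and 1 other protein-coding gene in all of its flanks. The highest bins of Zp2, at Dnah3 with 1.78 (0.853 to 3.27), and of Nobox, at Arhgef5 with 1.60 (0.732 to 3.04), had intervals that spanned 1. At Zp3 0 of 20 flank bins reached the level of the gene, at Nobox and Astl 1 did, at Zp1 2, at Gdf9 and Npm2 3, at Lhx8 5, at Figla and Sohlh1 6, and at Zp2 8.

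For the 6 genes whose strand the promoter table gives, fragments lay more often beyond the end of the gene than before its start. The 2.5 kb beyond the end held 27 fragments, a level of 3.20 (2.11 to 4.66), and the 2.5 kb before the start held 7, a level of 0.830 (0.334 to 1.71). Here the start is the outer edge of the annotated gene. The starts used for the promoters of Figla and Nobox, and the inner start of Astl, lie inside that edge. Of the 27, 16 lay beyond Zp3 and Astl. This split was looked at after the values were seen. Over 16457 autosomal protein-coding genes with a strand in the table the levels were 1.31 beyond the end and 1.08 before the start, so the order is the same for all genes. Over all 10 genes, the genes themselves had a level of 2.07 (1.73 to 2.46) and the sides of 2.5 kb together 2.03 (1.54 to 2.63). The median fragment length was 338 bp in the windows and 322 bp over the autosomes.

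Lists of other genes of the egg had lower medians than the 10. Among 9 genes of the egg surface and of fertilisation the median was 1.05 and 2 intervals lay above 1, with Cd9, a tetraspanin needed for gamete fusion, highest at 1.71 (1.21 to 2.35) and Gpr3, the receptor that holds the oocyte in meiotic arrest, lowest at 0.434 (0.0526 to 1.57). Among 9 other transcription regulators of the oocyte the median was 1.35, again with 2 intervals above 1. Tcf3, an E protein of the kind that pairs with FIGLA, had 2.60 (1.88 to 3.50), and Tbpl2, the oocyte form of the TATA-binding protein, had 0.883 (0.494 to 1.46). In the pathway of GDF9 and BMP15 the median over 6 autosomal genes was 1.17, and 3 intervals lay above 1, with Furin, which encodes a proprotein convertase, at 2.18 (1.42 to 3.19) and the receptor gene Tgfbr1 at 0.934 (0.650 to 1.30). Bmp15, the sister gene of Gdf9 on chromosome X, had 1.22 (0.527 to 2.40). Among 7 genes of the nucleoplasmin family and of maternal chromatin the median was 1.41, with 3 intervals above 1 and a summed level of 1.59 (1.40 to 1.80), whose interval overlaps that of the 10. The linker histone gene H1f8 had 2.76 (1.58 to 4.48), while Npm1, a relative of Npm2, had 0.748 (0.301 to 1.54).

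For genes that share a protein domain with members, but act in other tissues, the list medians lay between that of all genes and that of the 10, while single genes lay on either side of 1. Among 11 genes of proteins with a ZP domain the median was 1.35, with 6 intervals above 1 and 1 below, from Cuzd1 at 2.18 (1.38 to 3.28) to Zpld1 at 0.692 (0.494 to 0.942). Of 4 astacin protease genes other than Astl, with a median of 1.51, 2 had an interval above 1, led by Bmp1, a procollagen protease, with 2.23 (1.71 to 2.84), and Tll1 was lowest with 0.854 (0.691 to 1.04). Several of these windows are many times longer than those of the 10, so that an interval above 1 is reached at a lower level.

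The other maternal lists nearest in kind were lower at the median. For the 7 genes of the subcortical maternal complex, a protein assembly under the egg membrane, the median was 1.38, with 2 intervals above 1 and 1 below and a summed level of 1.55 (1.31 to 1.82), whose interval also overlaps that of the 10. Padi6 had 2.63 (1.77 to 3.76), and Ooep had no fragment, for which the limit set by 3 fragments is a level of 0.798. For the 14 genes of maternal mRNA storage and clearance the median was 1.14, with 3 above and 1 below. Eif4e1b, an oocyte form of a cap-binding protein, had 3.01 (1.72 to 4.88), and Cnot6l, a deadenylase subunit, had 0.360 (0.220 to 0.556). An interval above 1 was thus found for 28.6% of the complex genes and 21.4% of the storage and clearance genes, against 29.5% of all genes. No difference between lists was tested, since 1 pooled sample allows none.

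Markers of cells that could accompany the zygote were looked at in the same way. Of 15 cumulus and granulosa cell markers 5 had an interval above 1 and 2 below, with a median of 0.999 and levels from 0.257 (0.0312 to 0.929) at Areg to 2.63 (1.31 to 4.71) at Amh. The summed level of this list was 1.00 (0.901 to 1.11). Of 11 autosomal spermatid markers 3 had an interval above 1, with a median of 1.53 and levels from 0.502 (0.104 to 1.47) at Acrv1 to 3.34 (1.73 to 5.84) at Tssk2, whose window overlaps that of Tssk1. The window of Prm2 likewise overlaps those of Prm1 and Tnp2, so these markers are not separate loci. An interval above 1 was thus found for 33.3% of cumulus and granulosa markers and 27.3% of spermatid markers, near the 29.5% of all genes. A histone mark at a gene does not show that the gene is transcribed, so these values do not test the label of the cells, and their part in the levels of the 10 genes was not tested.

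**Figure D5:**
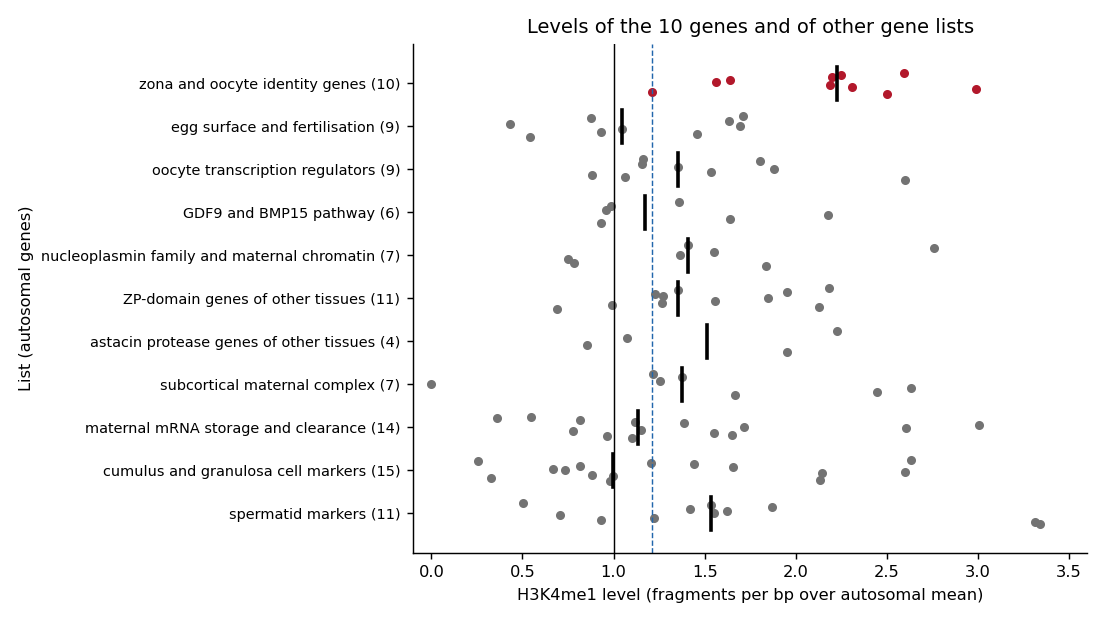
Level of H3K4me1 (fragments per bp over the autosomal mean) of each autosomal gene (points) in the 10 genes (red) and in 10 other lists (grey), with the number of genes in parentheses; the thick bar is the list's median, the solid line the autosomal mean and the dashed line the median of autosomal protein-coding genes. The median of the 10 genes, 2.22, lies to the right of the other medians, which run from 0.999 to 1.53, while single genes of other lists reach up to 3.34.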

How the data were processed

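The deposited table listed 1 H3K4me1 fragment per line with a count of 1 on all 1424363 lines, so counts per region were made by counting lines. The build is mm10, per the submitters' processing notes. For the aligner, duplicate removal, filters and any Tn5 shift the entry is: not given in the sources used here. Fragments were placed by their midpoint, and 5 lines repeated another of the same library. Of 16 libraries, 14 reached 5000 fragments, and the other 2 held 740 together. Chromosome lengths were taken from first to last fragment, so unsequenced bases count as bases. Genes came from RefSeq for GRCm38.p6. Named genes were the 10 members, the highest and lowest of each other list, and the gene at the highest flank bin; other neighbours sharing a window, Bmp15 and the promoter genes were named after values were seen. Members and lists were chosen with earlier results of these data known. Intervals were computed with scipy 1.17.1 and tested on simulated Poisson counts. Such counts hold no dependence between fragments, so this test does not show how well the intervals cover these data. Alternatives changed the window, library minimum, weights, placement, flanks and libraries.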

Additional observations from a re-analysis of the deposited data

How the results depend on the processing

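The summed level of the 10 genes stayed within the interval of its reported value under all 26 alternatives run, from 1.94 without library 5-6 to 2.19 without library 5-4, and its ratio to the flanks did so under all 29, from 1.40 to 1.64. With 1 library left out, the median level ran from 2.04 to 2.35, the ratio from 1.40 to 1.57, and the number of genes with an interval above 1 from 6 to 8. With libraries weighted equally the median was 1.90. In libraries named 4 alone, with 252571 fragments, the median was 1.67 and 3 genes had an interval above 1. There the level of Zp1 was 0.883 and its ratio to the flanks 0.842, from 1 fragment, and Figla had 0 fragments and a level of 0. The cause of these shifts was not tested. Over the gene alone 6 genes had an interval above 1, with 1 kb around it 9 did, with 5 kb 7, without Lhx8, and with libraries weighted equally 7, without Figla. Chromosome-fixed bins gave 2 enriched flank bins. A bound of 2 times the mean gave 0 with the minimum of 20 fragments. That minimum already lies above 3 times the mean, so this alternative could not change the count. With at least 10 fragments, a minimum chosen after the data were seen, the bound of 2 times the mean gave 38. These are the same 38 bins that had an interval above 1, since both conditions begin at 12 fragments, a level of 2.14. Of autosomal bins, 7.92% had an interval above 1. The share that also has 5 or more libraries was not computed. For single genes 505 of 520 recomputed values stayed within the reported interval, a count that includes the alternatives with little or no room to change. No paired analysis was possible because both batches share 1 table and no label ties a library to a batch. Most genes rest on 10 to 35 fragments, which is the limit of these data.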
